A study of Mus musculus with 6 samples.

Results

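The genes described here are 9 enzymes of the tricarboxylic acid (TCA) cycle and of itaconate synthesis, chosen by name from the 54532 genes of the deposited table: Acod1, Cs, Idh3a, Idh3b, Idh3g, Ogdh, Dlst, Fh1 and Mdh2. All 9 reached the minimum for testing, 1 FPKM on average over the libraries, as did 9867 genes in all. FPKM counts sequenced fragments relative to gene length and library depth. RNA was sequenced from 6 samples of primary macrophages of wild-type (WT) mice, 3 given vehicle and 3 given rmMETRNL for 6 h, and all 6 then met the yeast Candida albicans for 6 h. rmMETRNL is named for METRNL (meteorin-like), a secreted protein. No sample without the yeast is part of the comparison, so it sets pretreatment against pretreatment and does not measure the response to the fungus. The labels give neither strain, age nor tissue of origin. They leave unsaid whether replicates were separate animals, cultures or technical repeats, and p-values reflect the spread among these libraries only. Each direction rests on reading the columns named Wr as rmMETRNL and those named Wt as vehicle.

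The TCA cycle runs in the mitochondrial matrix. It oxidizes acetyl groups to carbon dioxide and passes electrons to the respiratory chain. In activated macrophages part of its citrate is diverted: the product of Acod1 (aconitate decarboxylase, also known as Irg1) turns the intermediate cis-aconitate into itaconate, a metabolite that inhibits succinate dehydrogenase and bacterial enzymes and is known to dampen inflammation. Cs makes citrate, Idh3a, Idh3b and Idh3g encode the subunits of the NAD-dependent isocitrate dehydrogenase, Ogdh and Dlst encode parts of the 2-oxoglutarate dehydrogenase complex, and Fh1 and Mdh2 encode fumarase and the mitochondrial malate dehydrogenase of the last steps.

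The libraries held between 13235001 and 18145733 reads (or read pairs), recovered from the FPKM values. All 10 macrophage markers checked were above 1 FPKM, led by Lyz2 (mean of 5514 FPKM) and Cd14 (2473 FPKM). The labels' extraction text speaks of retinas, and the retina markers checked summed to at most 0.867 FPKM in any library. Neutrophils are also known to make Acod1. The 8 neutrophil markers summed to 5.87 to 9.05 FPKM in vehicle and 7.59 to 8.87 FPKM in rmMETRNL libraries, with 1 of the 8 above 1 FPKM (Retnlg, mean of 6.53 FPKM, followed by Cebpe at 0.568 FPKM) and no read for Elane. The lists for T cells, B cells, dendritic cells, mast cells, fibroblasts and mesothelial cells each summed to at most 15.6 FPKM in any library, with the mast cell list highest. The part of other cells in any result was not tested. In rmMETRNL library 3 the deviation of a gene from its mean correlated with log2 gene length at r = 0.203 across genes, where the other 5 libraries lay between -0.140 and 0.0534, so values without that library, or with the length trend removed, are given where they moved a fold change of the 9 genes by over 1.5 times, and for Idh3b.

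The mean level of Acod1 differed between the groups by less than the spread of the libraries. The 8 TCA cycle genes all had lower means after rmMETRNL, with differences from -2.74% for Mdh2 to -17.1% for Idh3b. None of the 9 passed limma's test across all genes (adjusted p of 0.243 to 0.898), and neither did any other gene (0 of 9867, or 0% called, lowest adjusted p = 0.103). At an unadjusted p under 0.05 there were 3 of the 9, Idh3b, Idh3g and Dlst, all lower, against 14.7% of all genes tested in either direction and 7.13% in the lower one. In 5 of the 9, Idh3b, Idh3g, Ogdh, Dlst and Fh1, every rmMETRNL library lay below every vehicle library, as in 10.6% of all genes tested. With the values rescaled to TPM (values with the same sum in each library) this held for 3 of the 9, Idh3b, Idh3g and Dlst, and for 8.35% of all genes tested. Limma voom on the recovered reads called 61 genes (0.618%) and 0 of the 9, with 4 of the 9 and 15.6% of all genes at an unadjusted p under 0.05. In bulk RNA fewer cells with a transcript and less transcript per cell cannot be told apart.

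**Figure D1:**
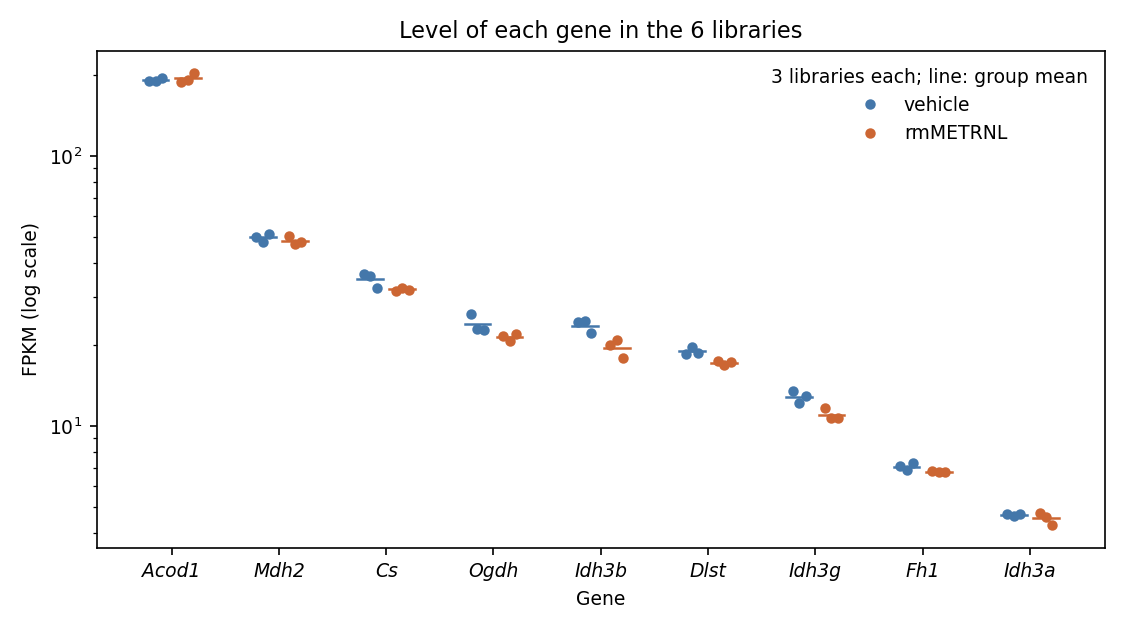
FPKM of each gene (log axis) in the 3 vehicle and 3 rmMETRNL libraries, with points for libraries and lines for group means. Acod1 lies at 187 to 202 FPKM and the TCA cycle genes at 4.28 to 51.4 FPKM. The groups are apart for Idh3b, Idh3g, Ogdh, Dlst and Fh1, for Fh1 only by 6.84 against 6.83 FPKM.

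Acod1 (ENSMUSG00000022126, chromosome 14, 103046977 to 103056573, GRCm38) was the most abundant of the 9, at rank 264 of the 9867 genes tested. It stood at 190.2, 189 and 195 FPKM in vehicle libraries 1 to 3 and at 187, 192 and 202 FPKM in rmMETRNL libraries 1 to 3. The groups overlapped, and both the lowest and the highest value came from rmMETRNL libraries. The means were 191 ± 3.15 and 194 ± 7.65 FPKM (SD, n = 3 per group, as for all means here). The log2 fold change was 0.016 (SE 0.044, limma adjusted p = 0.898) on the log2(FPKM + 1) scale, as for all fold changes given. The 95% confidence interval of -0.09 to 0.12 spans changes from -5.94% to 8.76%. Between 6633 and 9317 reads per library stood behind these values, so counting error was at most 1.23%. Without rmMETRNL library 3, the highest, the log2 fold change was -0.015, and with the length trend removed it was 0.040.

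The stretch just before the start of Acod1 is shown with those of Idh3b and Idh3g, the genes with the largest differences (RefSeq promoters, build GRCm38.p6, each cut where an annotated exon begins). Capitals mark letters that match a motif searched on both strands: GGG and CC with any 5 bases between (NF-kappaB), GCGCA and GCGC with any 1 base between (NRF1), CCGGAAG (ETS factors), TATAAA (the TATA box) and GAAA and GAAA with any 2 bases between (interferon response). No match of 1 motif overlaps one of another here.
Acod1, chr14:103046762-103046976, plus strand: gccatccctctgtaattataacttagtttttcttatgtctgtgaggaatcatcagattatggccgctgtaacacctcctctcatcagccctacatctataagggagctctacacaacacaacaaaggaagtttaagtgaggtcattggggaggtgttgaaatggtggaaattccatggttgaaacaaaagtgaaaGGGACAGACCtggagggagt
Idh3b, chr2:130284548-130284701, minus strand: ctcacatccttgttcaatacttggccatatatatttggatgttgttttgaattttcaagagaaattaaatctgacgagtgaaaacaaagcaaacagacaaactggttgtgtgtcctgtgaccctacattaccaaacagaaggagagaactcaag
Idh3g, chrX:73786898-73787027, minus strand: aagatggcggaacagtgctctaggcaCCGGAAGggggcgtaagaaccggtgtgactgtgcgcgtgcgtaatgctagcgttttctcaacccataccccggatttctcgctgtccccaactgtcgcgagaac
The Acod1 stretch held 1 NF-kappaB match, a pattern found in 50.8% of 32817 promoter windows of 300 bases. The Idh3g stretch held 1 ETS match, found in 8.86% of those windows, and the Idh3b stretch held none of the 5 motifs. The NRF1 pattern occurs in 4.59%, TATAAA in 13.6% and the interferon response pattern in 3.43% of the windows. Windows were found by symbol for 8 of the 9 genes. Over these full windows Acod1 had a TATAAA match that begins 28 bases before its RefSeq start, in a stretch that GENCODE M21 counts as its first exon and that is not printed, and none of the other 7 genes had a TATAAA match. The window of Idh3b also held an ETS match, 5 bases before its RefSeq start and likewise inside the exon GENCODE gives. Among the full windows, the NF-kappaB pattern was also found in those of Cs, Dlst and Fh1 and in a window of Ogdh. The ETS pattern was also found in that of Dlst.

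Idh3b, Idh3g and Idh3a encode the beta, gamma and alpha subunits of NAD-dependent isocitrate dehydrogenase, which makes 2-oxoglutarate from isocitrate. The alpha subunit is catalytic, while beta and gamma are mainly structural and regulatory. Idh3b (ENSMUSG00000027406, chromosome 2, 130279309 to 130284547) had the largest difference of the 9, at 24.2, 24.4 and 22.0 FPKM in vehicle libraries and 19.9, 20.8 and 17.8 FPKM in rmMETRNL libraries. Every rmMETRNL value lay below every vehicle value, and rmMETRNL library 3 was the lowest. The means of 23.5 ± 1.31 and 19.5 ± 1.55 FPKM gave a log2 fold change of -0.26 (SE 0.07, 95% confidence interval -0.43 to -0.09, limma adjusted p = 0.243). The interval corresponds to -25.9% to -5.83%. Without rmMETRNL library 3 it was -0.20, and with each library's length trend removed -0.25.

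Idh3g (ENSMUSG00000002010, chromosome X, 73778963 to 73786897) stood at 13.4, 12.1 and 12.9 FPKM in vehicle libraries. In rmMETRNL libraries it stood at 11.6, 10.7 and 10.7 FPKM, again with no overlap between the groups. Its means were 12.8 ± 0.672 and 11.01 ± 0.514 FPKM, and the log2 fold change was -0.20 (SE 0.06, 95% confidence interval -0.35 to -0.06, limma adjusted p = 0.252). Its start lies 131 bases from that of Ssr4, a gene of the protein translocation machinery of the endoplasmic reticulum that is read in the opposite direction, so the Idh3g stretch printed above is the whole gap between them. Ssr4 had 28.9, 28.03 and 32.5 FPKM in vehicle libraries and 30.3, 28.3 and 27.4 FPKM in rmMETRNL libraries. The groups of Ssr4 overlapped (log2 fold change -0.053, SE 0.07, limma adjusted p = 0.769), and the difference between the neighbours was not tested. Dlst and Mdh2 also start near a gene read in the opposite direction, at 74 and 95 bases, and both neighbours were below the level tested.

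Idh3a (ENSMUSG00000032279, chromosome 9, 54586334 to 54604661) was the least abundant of the 9. Its values were 4.72, 4.62 and 4.72 FPKM in vehicle libraries and 4.76, 4.61 and 4.28 FPKM in rmMETRNL libraries. The groups overlapped, with rmMETRNL library 1 highest and rmMETRNL library 3 lowest (log2 fold change -0.036, SE 0.06, 95% confidence interval -0.18 to 0.10, limma adjusted p = 0.820). With 313 to 436 reads per library the counting error of a single value was up to 5.65%. The log2 fold change was -0.000918 without rmMETRNL library 3, -0.063 without rmMETRNL library 1 and -0.021 in TPM.

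The ratios of the subunits were also compared within libraries. Idh3b stood at 5.12, 5.28 and 4.66 times the FPKM of Idh3a in vehicle libraries and at 4.19, 4.503 and 4.15 times in rmMETRNL libraries, with no overlap. The log2 difference was -0.23, with p = 0.10 in an exact two-sided permutation test, the smallest p that 3 against 3 can give (adjusted p = 0.15 over the 3 ratios tested). The Idh3g to Idh3a ratio was 2.85, 2.62 and 2.73 with vehicle and 2.44, 2.32 and 2.502 with rmMETRNL, also with no overlap. Its log2 difference was -0.18, with the same exact permutation p = 0.10 (adjusted p = 0.15).

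**Figure D2:**
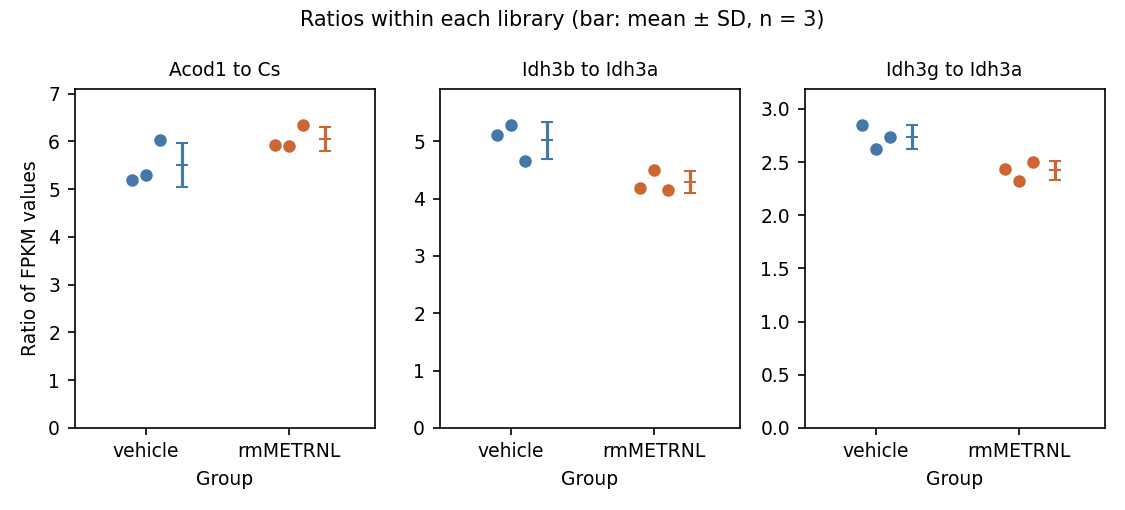
Ratios of FPKM values within each library, by group, for Acod1 to Cs, Idh3b to Idh3a and Idh3g to Idh3a, with points for libraries and bars for mean ± SD (n = 3). The Idh3 ratios are lower in every rmMETRNL library than in any vehicle library, and the Acod1 to Cs ratios overlap.

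Ogdh and Dlst encode the 2-oxoglutarate-oxidizing and the succinyl-transferring components of the complex that makes succinyl-CoA. Ogdh (ENSMUSG00000020456, chromosome 11, 6291633 to 6356642) had 25.9, 22.9 and 22.7 FPKM in vehicle libraries and 21.5, 20.6 and 21.9 FPKM in rmMETRNL libraries. The groups did not overlap, but vehicle library 1 stood above the rest. The log2 fold change was -0.15 (SE 0.06, 95% confidence interval -0.30 to 0.00237, limma adjusted p = 0.344) and -0.091 without vehicle library 1. Dlst (ENSMUSG00000004789, chromosome 12, 85110833 to 85134845) had 18.4, 19.5 and 18.7 FPKM with vehicle. With rmMETRNL it had 17.3, 16.8 and 17.2 FPKM, below every vehicle value and within a narrow range. The means of 18.8 ± 0.591 and 17.1 ± 0.261 FPKM gave a log2 fold change of -0.13 (SE 0.05, 95% confidence interval -0.24 to -0.02, limma adjusted p = 0.299).

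Cs (ENSMUSG00000005683, chromosome 10, 128337734 to 128362479), whose product joins acetyl-CoA and oxaloacetate, had 36.6, 35.8 and 32.3 FPKM in vehicle libraries and 31.6, 32.5 and 31.9 FPKM in rmMETRNL libraries. Vehicle library 3 lay among the rmMETRNL values and the other vehicle libraries above them. The log2 fold change was -0.12 (SE 0.06, 95% confidence interval -0.25 to 0.02, limma adjusted p = 0.393). It was -0.17 without vehicle library 3, -0.084 without vehicle library 1 and -0.10 in TPM. The ratio of Acod1 to Cs, the enzyme of itaconate synthesis against that of citrate synthesis, was 5.19, 5.29 and 6.03 with vehicle and 5.92, 5.90 and 6.33 with rmMETRNL. These groups overlapped (log2 difference 0.14, exact permutation p = 0.30, adjusted p = 0.30).

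Fh1 and Mdh2 act on fumarate and malate. Fh1 (ENSMUSG00000026526, chromosome 1, 175600374 to 175625635) stood at 7.10, 6.84 and 7.25 FPKM in vehicle libraries and 6.83, 6.76 and 6.72 FPKM in rmMETRNL libraries. The groups did not overlap, but the gap between them, 6.84 against 6.83 FPKM, was small beside a counting error of up to 5.68% (310 to 448 reads). The log2 fold change was -0.053 (SE 0.05, 95% confidence interval -0.17 to 0.07, limma adjusted p = 0.663). The groups overlapped with the length trend removed, in TPM and after quantile normalization. Mdh2 (ENSMUSG00000019179, chromosome 5, 135778480 to 135790398) stood at 50.1, 48.0 and 51.4 FPKM in vehicle libraries and 50.4, 47.0 and 48.0 FPKM in rmMETRNL libraries. Its groups overlapped (log2 fold change -0.039, SE 0.05, 95% confidence interval -0.16 to 0.08, limma adjusted p = 0.753). The log2 fold change was -0.068 and -0.066 without rmMETRNL library 1 or vehicle library 2, -0.017 without rmMETRNL library 2 or vehicle library 3, -0.019 in TPM and -0.016 after quantile normalization.

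**Figure D3:**
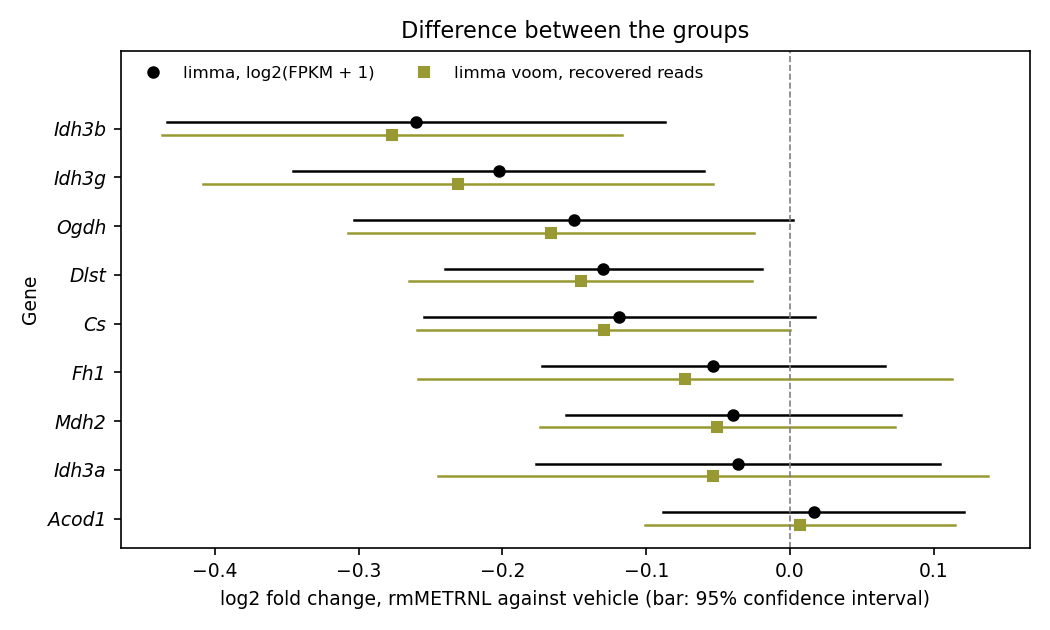
Log2 fold change of each gene, rmMETRNL against vehicle, with its 95% confidence interval, from limma on log2(FPKM + 1) and from limma voom on recovered reads. Idh3b (-0.26 in limma) and Idh3g (-0.20) lie farthest below 0 and Acod1 (0.016) lies nearest to 0, in both fits.

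The 9 genes had a median log2 fold change of -0.12, against -0.00562 over all genes tested, and 8 of 9 were negative, as were 51.6% of all genes. Single differences the size of this median were common: 21.5% of all tested genes lay below Cs, whose log2 fold change is the median. Idh3b lay farther out, with 6.06% of all tested genes below it. Of the 5382 genes that averaged 5 FPKM or more, 95% lay between -0.31 and 0.27. Each rmMETRNL library showed the lower values. Against the vehicle mean, 6, 8 and 8 of the 8 TCA cycle genes were lower in rmMETRNL libraries 1, 2 and 3. In vehicle libraries 1, 2 and 3 the counts were 1, 5 and 4. The median of the 8 stood at -0.12, -0.13 and -0.12 in the rmMETRNL libraries and at 0.02, -0.03 and -0.00222 in the vehicle libraries. The median over all genes tested stood at -0.00577, -0.00337 and -0.00432 in the rmMETRNL libraries. The genes share their libraries, so they are not independent counts of the treatment.

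**Figure D4:**
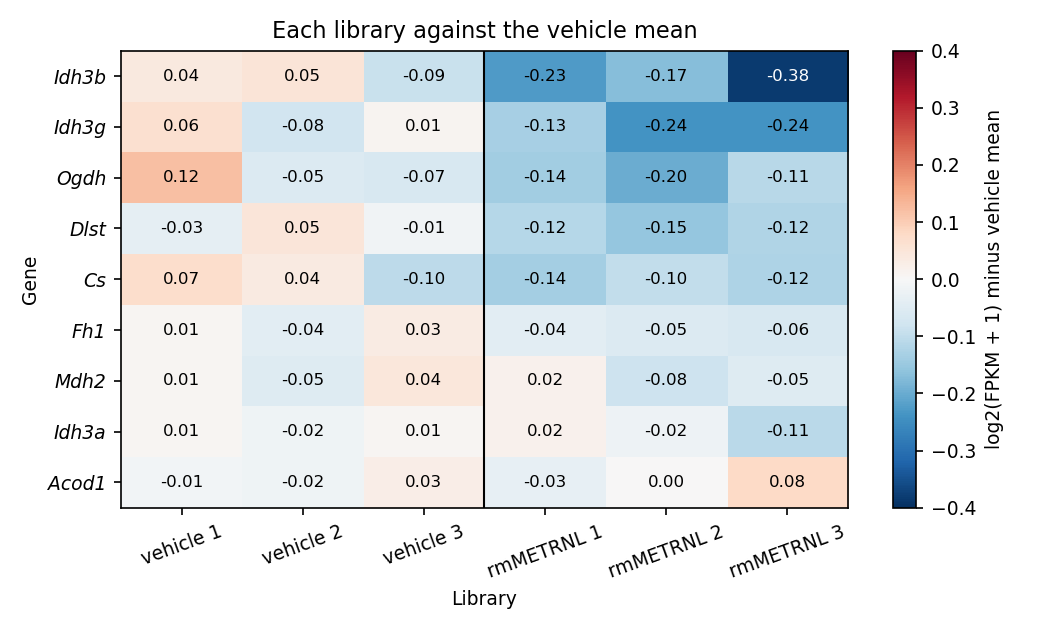
Deviation of each gene in each library from the vehicle mean, in log2(FPKM + 1), with genes ordered by fold change. Blue cells (lower) fill the rmMETRNL columns for Idh3b, Idh3g, Ogdh, Dlst and Cs, and paler ones for Fh1 (-0.04 to -0.06). The lowest cell is Idh3b in rmMETRNL library 3 (-0.38). Some vehicle cells are below 0 too, the lowest being Cs in vehicle library 3 (-0.10).

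By level, in FPKM as deposited, the order was Acod1, Mdh2, Cs, Ogdh, Idh3b, Dlst, Idh3g, Fh1 and Idh3a. The ranges over the 6 libraries were apart for neighbours in this order except Ogdh and Idh3b, and Idh3b and Dlst. Idh3b was above Dlst in all 6 libraries, and Ogdh above Idh3b in 4 of 6. This order depends on the gene lengths behind the FPKM values: per kilobase of the principal coding transcript, Dlst was above Idh3b, Idh3b above Ogdh and Idh3a above Fh1 in all 6 libraries. Acod1 alone stood at 1.05 to 1.13 times the summed FPKM of the 8 TCA cycle genes in vehicle libraries and at 1.14 to 1.27 times in rmMETRNL libraries. With principal transcript lengths it stood below that sum, at 0.487 to 0.518 times in vehicle and 0.522 to 0.584 times in rmMETRNL libraries. These lengths divide all reads of a gene, including any from exons outside the principal transcript, so levels of genes with such reads are overstated. Idh3b shared 5 exon bases with Nop56 on the other strand, and none of the other 8 genes shared any with an annotated gene. Of the 31-base words of Cs, 8.60% occur in other genes, mostly Csl, which is listed at 0 FPKM in all libraries.

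For the rest of the cycle the median lay near that of all genes. Of 10 other TCA cycle genes, 9 were tested, 5 with a negative and 4 with a positive log2 fold change and a median of -0.011. None passed (limma, lowest adjusted p = 0.387), and 0 had an unadjusted p under 0.05, against 14.7% of all genes tested. In 2 of the 9 every rmMETRNL library lay below every vehicle library, against 10.6% of all genes tested. The reverse held for 0 of the 9, against 10.9% of all genes tested. Sdha, a subunit of the succinate dehydrogenase that itaconate inhibits, averaged 20.5 ± 0.421 FPKM in vehicle and 19.1 ± 0.423 FPKM in rmMETRNL libraries, with no overlap (vehicle is given first from here on). Idh2, the NADP-dependent mitochondrial isocitrate dehydrogenase gene, had 6.19 ± 1.01 and 5.78 ± 0.680 FPKM, and Sdhd, an anchor subunit of succinate dehydrogenase, 50.5 ± 0.387 and 51.7 ± 3.85 FPKM.

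Pyruvate enters the cycle through the pyruvate dehydrogenase complex, and glutamine through glutamate. Of 11 genes of that complex and its regulators 8 were tested, with 2 negative and 6 positive. This list had a median of 0.012 and 0 genes with groups apart, against 21.5% of all genes tested in either direction. Its leading genes by p were Pdhx (3.00 ± 0.351 and 3.46 ± 0.327 FPKM), Pdk3 (7.64 ± 0.479 and 8.53 ± 1.08 FPKM), Pdhb (13.9 ± 0.461 and 12.9 ± 0.990 FPKM) and Pdpr (1.27 ± 0.296 and 1.08 ± 0.315 FPKM). Of the 9 genes of anaplerosis, glutamine entry and the aspartate shuttle, 4 were negative and 5 positive, with a median of 0.015, and 0 passed (lowest adjusted p = 0.216 in limma). The groups were apart in 2 lower and 2 higher genes, against 10.6% and 10.9% of all genes tested. In limma 3 of the 9 had an unadjusted p under 0.05, against 14.7% of all genes tested. Glud1, whose product makes 2-oxoglutarate from glutamate, had 38.3 ± 1.10 and 33.2 ± 0.860 FPKM with no overlap (log2 fold change -0.20, SE 0.05). The cytosolic malate dehydrogenase gene Mdh1 was also lower in every rmMETRNL library, at 25.5 ± 0.641 and 23.4 ± 0.200 FPKM. The cytosolic aspartate aminotransferase gene Got1 (66.2 ± 2.01 and 72.1 ± 2.60 FPKM) was higher in every rmMETRNL library.

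**Figure D5:**
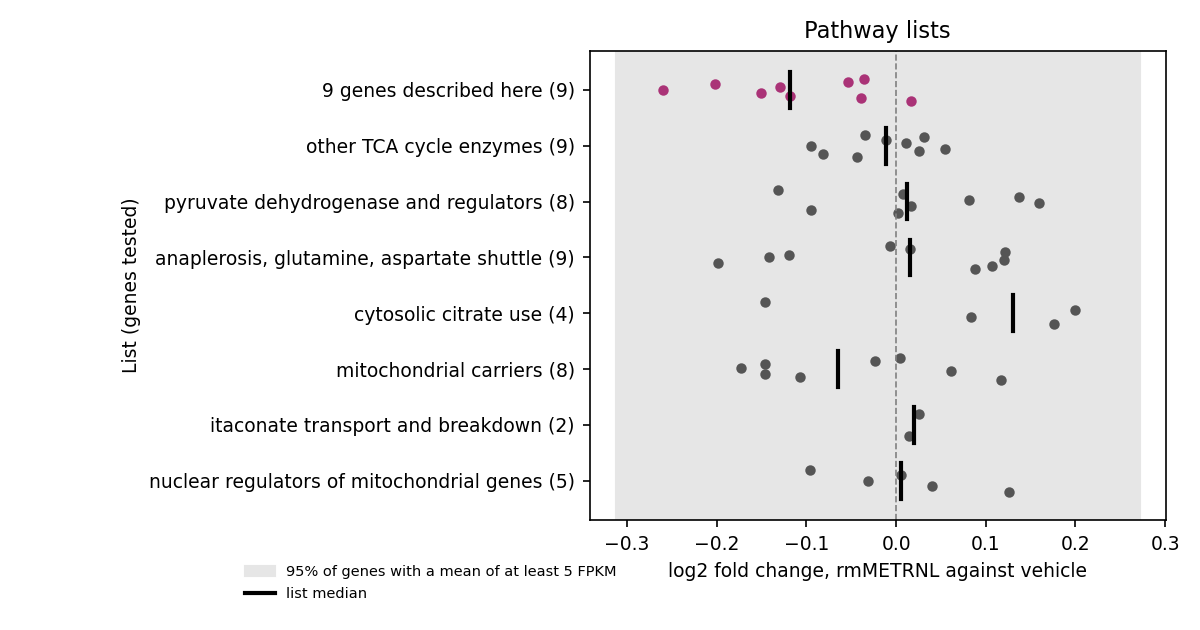
Log2 fold change of each tested gene, by list, with a bar at the list median and a grey band for the middle 95% of genes that averaged 5 FPKM or more. The 9 genes have a median of -0.12 and the other TCA cycle genes of -0.011, and all points lie inside the band.

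Citrate that leaves the mitochondrion is carried by Slc25a1 and used in the cytosol. Of the 5 genes of this list 4 were tested, 3 positive and 1 negative, with a median of 0.13, and in each of the 4 the groups did not overlap, as in 21.5% of all genes tested in either direction (lowest adjusted p = 0.320 in limma, 0 passed). Acly, which splits citrate into acetyl-CoA and oxaloacetate, had 39.1 ± 1.71 and 44.4 ± 3.64 FPKM, and the cytosolic isocitrate dehydrogenase gene Idh1 5.58 ± 0.121 and 6.58 ± 0.686 FPKM. Aco1, the cytosolic aconitase, had 8.43 ± 0.425 and 8.99 ± 0.0886 FPKM. Slc25a1 went the other way, at 30.9 ± 1.73 and 27.8 ± 0.989 FPKM. Among 8 mitochondrial carriers, with Slc25a1 counted again, 5 were negative and 3 positive, with a median of -0.065 and 0 passed. The groups were apart in 3 lower carriers and 1 higher carrier, against 10.6% and 10.9% of all genes tested. In limma 2 of the 8 had an unadjusted p under 0.05, against 14.7% of all genes tested. Slc25a11, the 2-oxoglutarate carrier gene, had 30.9 ± 0.729 and 27.3 ± 0.927 FPKM with no overlap (log2 fold change -0.17, SE 0.05, limma adjusted p = 0.238). The aspartate-glutamate carrier gene Slc25a12 had 2.71 ± 0.131 and 2.35 ± 0.147 FPKM, and the pyruvate carrier gene Mpc1 11.2 ± 1.36 and 12.2 ± 0.883 FPKM.

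Genes of itaconate transport and breakdown were mostly below the level tested, 5 of 7. The tested genes, both positive and with groups that overlapped, were Clybl, whose product breaks down a product of itaconate (3.10 ± 0.208 and 3.14 ± 0.182 FPKM), and Suclg1, a succinyl-CoA ligase subunit that also acts on itaconate (4.14 ± 0.498 and 4.23 ± 0.314 FPKM). Suclg1 is also counted among the other TCA cycle genes above. Of 8 nuclear regulators of mitochondrial genes 5 were tested, with 2 negative and 3 positive and a median of 0.00585. The nuclear receptor gene Ppard had 12.9 ± 0.226 and 12.05 ± 0.566 FPKM with no overlap, the mitochondrial transcription factor gene Tfam 2.92 ± 0.337 and 3.27 ± 0.240 FPKM, Nrf1 4.004 ± 0.372 and 4.14 ± 0.236 FPKM and Gabpa 9.26 ± 0.702 and 9.03 ± 0.422 FPKM. None of these passed limma's test.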

How the data were processed

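The authors deposited 1 table of FPKM values, scaled by gene length and library size, for 54532 genes and 6 libraries, with gene names, positions and lengths. The submitters' processing notes name GRCm38 (mm10). No aligner, counting tool or strand setting is named in the sources used here. All 9 genes matched GENCODE M21 (GRCm38) in start and end. Multiplied by gene length and divided by a step for each library, 100% of values came out as whole numbers of reads (tolerance 0.05 reads). The step was estimated from the products themselves, with the smallest positive product taken as a single read. At a length of 1 kb, 10 reads are 0.549 to 0.748 FPKM.

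Genes averaging 1 FPKM or more were tested with limma 3.58.1 (R 4.3.3, mean-variance trend, two-sided) on log2(FPKM + 1), adjusted by Benjamini-Hochberg over all genes tested with a threshold of 0.05. The pseudocount understates the change of low genes. The fit was tested on simulated data. Ratios used an exact permutation test. The replicate number was not used as a block, since same-numbered libraries did not deviate together (correlations of -0.0454 to 0.00741 across genes). Replicates differed by more than sampling noise.

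Genes and lists were chosen with earlier results of these data known. Besides the 9, the text names the 4 tested genes of smallest p in each pathway list, the 2 most abundant markers, and the genes of most similar profile. Some genes that this rule names are not reported here. Elane, Ssr4, Nop56 and Csl were named after their values were seen. The other settings are in the closing section.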

Additional observations from a re-analysis of the deposited data

How the results depend on the processing

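Across 16 other fits, 142 of 143 values of the 9 genes kept their direction and stayed above an adjusted p of 0.05 (lowest 0.102, Idh3b in voom). The exception was Acod1, at -0.015 without rmMETRNL library 3 (-0.015 to 0.040 without single libraries). The number of genes called in all was 0 in limma, 5 with no filter on low values, 1 after rescaling to TPM and 61 in limma voom on recovered reads, and 0 without any single library. The median of the 9 genes, -0.12, was -0.10 in TPM and lay between -0.14 (without vehicle library 3) and -0.084 (without vehicle library 1) without single libraries. The number of the 9 with every rmMETRNL value below the vehicle values was 5 (10.6% of all genes), 3 in TPM (8.35%), 6 in voom (11.4%) and 5 to 6 without single libraries, where fewer values must be apart and up to 16.9% of all genes were. The replicate block gave 0 calls, a median of -0.12 and Idh3b at an adjusted p of 0.291, and changed no call. Without single libraries, the log2 difference of the Acod1 to Cs ratio lay between 0.10 and 0.21, that of Idh3b to Idh3a between -0.28 and -0.19, and that of Idh3g to Idh3a between -0.20 and -0.15. Recovered reads give the same ratio differences by construction. Idh3a has no value at a minimum of 5 FPKM. Lengths of the principal coding transcript, chosen after seeing the data, turned the ratios of Ogdh to Dlst (0.480), Idh3b to Dlst (0.732), Ogdh to Idh3b (0.655), Fh1 to Idh3a (0.913) and Acod1 to the sum of the 8 TCA cycle genes (0.525) from above to below 1. Depth limits Idh3a and Fh1 most.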

Other observations

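The deposited values divide by all exon bases of a gene, which for several of these genes is far longer than the principal coding transcript in GENCODE M21. For Dlst the lengths were 9559 and 2764 bases, for Mdh2 3562 and 1456 bases, for Idh3a 5072 and 2403 bases, and for Acod1 2623 bases in both. Per kilobase of the principal transcript, otherwise on the same scale, the mean levels over 6 libraries were 193 for Acod1, 120.3 for Mdh2, 66.1 for Cs, 62.2 for Dlst, 45.5 for Idh3b, 29.8 for Ogdh, 24.2 for Idh3g, 9.75 for Idh3a and 8.90 for Fh1. These levels keep all reads of a gene, including any from exons outside the principal transcript. Dlst then ranked 4 and Ogdh 6 of the 9, where the deposited values put Ogdh at 4 and Dlst at 6. The Idh3b to Idh3a ratio of levels was 4.66 with the deposited lengths and 4.67 with these. Fold changes between the groups do not depend on the length used, apart from the pseudocount.

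Among 5374 other genes averaging 5 FPKM or more, the profiles over the 6 libraries closest to that of Acod1 were those of Cd33 (a root-mean-square difference of 0.0113 in log2), Smurf2 (0.0139) and Cyb5b (0.01498), where the Acod1 profile itself had a root-mean-square deviation of 0.0362. Closest to the mean of the 8 TCA cycle genes (deviation 0.0664) were Eif3c (0.0158), at 119 ± 3.01 FPKM in vehicle and 111 ± 1.75 FPKM in rmMETRNL libraries, Lsm14b (0.0169, 16.5 ± 0.267 and 15.2 ± 0.333 FPKM) and Nucb1 (0.0171, 41.9 ± 1.06 and 38.1 ± 1.46 FPKM). These are the closest of many genes over 6 libraries, and nothing is read from them.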
